A study of Mus musculus with 2 samples.

Results

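The S100 and galectin genes described here are 7 S100 genes (S100a4, S100a6, S100a10, S100a11, S100a13, S100a14 and S100a16) and 3 galectin genes (Lgals1, Lgals3 and Lgals9). They were taken by symbol, 10 of 55361 features counted in both libraries, and all 10 had a mean level of 5 CPM or more over the libraries, CPM being counts scaled to library size. The data are droplet single-cell RNA-seq counts from mouse pancreatic ductal adenocarcinoma, in 2 libraries: tumour cells sorted for high surface CD9, called CD9hi, and the whole tumour. The tumours carry Pdx1-Flp, which drives Flp recombinase in the pancreatic lineage, with KrasFSF-G12D/+, Trp53frt/frt, Rosa26FSF-creER and the Rosa26mTmG reporter, and these alleles are shared by both libraries. The submitters state that live GFP-positive cells were profiled and that sorting used GFP or CD9, and the number and age of the animals are not given in the sources used here. With 1 library a group there is no replicate check, so every difference is a size between these 2 libraries or between classes of barcodes in 1 library, with no test, and each 95% interval covers counting error only.

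S100 proteins are small calcium sensors that form dimers and bind partner proteins when calcium enters the cell. S100a4 binds non-muscle myosin IIA and is widely used as a marker of mesenchymal and motile cells, S100a10 holds annexin A2 in a complex at the plasma membrane, and S100a14 is known from epithelia. Galectins are lectins that bind galactose-containing sugars on glycoproteins: Lgals1 encodes a dimer-forming galectin with a single sugar-binding domain, Lgals3 a galectin with a long tail that lets it form larger assemblies, and Lgals9 a galectin with a linked pair of such domains. In pancreatic cancer several of these genes are known as abundant products of ductal tumour cells or of the surrounding stroma.

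Barcodes were kept with at least 500 detected genes, at least 1000 unique molecular identifiers (UMIs) and at most 20% mitochondrial UMIs, which left 5092 of 5500 barcodes in CD9hi and 2550 of 3082 in the whole tumour. The kept barcodes held 119632120 UMIs in CD9hi and 46270361 in the whole tumour, with medians of 21791.5 and 17686 UMIs per barcode, and 2 barcode sequences occurred in both libraries. Barcodes that met marker rules for acinar, immune, fibroblast, endothelial or islet cells made up 1.90% of CD9hi and 12.9% of the whole tumour, and 305 of the 329 in the whole tumour were acinar. Checked against its label, the CD9hi library held 2367 CPM of Cd9 and the whole tumour 1273 CPM. The epithelial gene Epcam stood at 1052 CPM in CD9hi, against 1925 CPM in the whole tumour, while Vim, the intermediate filament gene of mesenchymal cells, stood at 4862 CPM in CD9hi, against 1139 CPM in the whole tumour. No kept barcode of either library held a UMI of the GFP feature, so the sort on GFP could not be checked from the counts. CPM is 1000000 times the sum of a gene's UMIs over barcodes, divided by the summed UMIs of those barcodes. UMIs tag transcript 3′ ends and were not divided by length, so levels of different genes are given only as counts of tags.

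Most of the S100 genes lie side by side on mouse chromosome 3, where S100a1, S100a13, S100a14 and S100a16 are consecutive coding genes in the RefSeq order, S100a4, S100a5 and S100a6 are consecutive, and S100a11 neighbours S100a10. Lgals1, Lgals3 and Lgals9 lie on chromosomes 15, 14 and 11. The promoter windows of S100a4, S100a16, S100a11 and Lgals3 are shown because S100a4 had the largest ratio between the libraries, S100a16 took different courses along Vim in the libraries, and the windows of S100a16, S100a11 and Lgals3 hold the motif matches found. Each runs from 250 bases before to 50 bases after an annotated start, from RefSeq on GRCm38.p6, which is an older build than the GRCm39 of the counts. Windows were found for 7 of the 10 genes, S100a16 having 2.
S100a4, chr3:90603520-90603819, plus strand: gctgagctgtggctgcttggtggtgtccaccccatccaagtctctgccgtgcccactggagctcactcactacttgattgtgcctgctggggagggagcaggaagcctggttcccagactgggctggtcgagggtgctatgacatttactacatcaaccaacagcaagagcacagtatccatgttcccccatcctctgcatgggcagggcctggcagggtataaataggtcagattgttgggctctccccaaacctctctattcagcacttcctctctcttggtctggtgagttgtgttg
S100a16, chr3:90537004-90537303, plus strand: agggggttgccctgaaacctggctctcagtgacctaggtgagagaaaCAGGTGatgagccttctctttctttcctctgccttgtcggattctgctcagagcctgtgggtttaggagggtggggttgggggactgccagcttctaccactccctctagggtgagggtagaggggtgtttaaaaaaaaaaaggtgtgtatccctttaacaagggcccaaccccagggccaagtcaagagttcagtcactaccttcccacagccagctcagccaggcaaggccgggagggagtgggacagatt
S100a16, chr3:90540896-90541195, plus strand: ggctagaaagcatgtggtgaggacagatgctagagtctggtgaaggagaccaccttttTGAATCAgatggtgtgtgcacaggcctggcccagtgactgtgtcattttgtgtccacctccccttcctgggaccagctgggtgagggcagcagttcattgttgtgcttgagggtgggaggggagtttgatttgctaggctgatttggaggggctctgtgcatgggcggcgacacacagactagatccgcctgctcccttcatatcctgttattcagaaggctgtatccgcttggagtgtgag
S100a11, chr3:93520246-93520545, plus strand: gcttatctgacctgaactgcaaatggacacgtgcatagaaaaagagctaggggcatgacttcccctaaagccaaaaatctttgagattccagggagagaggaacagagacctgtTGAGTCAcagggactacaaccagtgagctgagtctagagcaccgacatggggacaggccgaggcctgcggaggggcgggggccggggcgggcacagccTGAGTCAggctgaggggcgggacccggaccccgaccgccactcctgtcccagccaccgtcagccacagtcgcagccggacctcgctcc
Lgals3, chr14:47373610-47373909, plus strand: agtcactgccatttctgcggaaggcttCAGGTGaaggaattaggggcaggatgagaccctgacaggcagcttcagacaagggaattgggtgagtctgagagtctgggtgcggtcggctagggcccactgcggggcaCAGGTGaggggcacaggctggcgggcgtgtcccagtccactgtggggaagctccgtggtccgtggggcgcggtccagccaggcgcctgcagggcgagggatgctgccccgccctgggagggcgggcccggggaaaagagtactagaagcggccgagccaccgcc
Capitals mark matches, on either strand, to an AP-1 motif (TGANTCA) or to the E-box bound by Zeb and Snail factors (CACCTG, or CAGGTG on the other strand). The AP-1 letters occurred in the windows of S100a11, with 2 matches, and S100a16, against 7.81% of 32851 mouse promoter windows of the same length. The E-box letters occurred in the windows of Lgals3, with 2 matches, and S100a16, against 20.2% of all windows. A TEAD motif (GGAATG, or CATTCC on the other strand), present in 14.7% of all windows, was not among the letters of the 8 windows examined. A match in such a window is a description of sequence and says nothing of binding in these cells.

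In the CD9hi library, S100a4, S100a6, S100a10, Lgals1 and Lgals3 were higher than in the whole tumour by more than 1.5-fold, while S100a14 and Lgals9 were lower by more than 1.5-fold. S100a4 differed most among the 10 genes, at 218 CPM in CD9hi, against 23.6 CPM in the whole tumour, a log2 ratio of 3.21 (95% interval 3.12 to 3.30). Together the 10 genes took 2.78% of all UMIs in CD9hi and 1.40% in the whole tumour, most of it S100a6. Of all 9760 genes with a mean of 5 CPM or more, 17.1% were higher and 13.4% lower in CD9hi by 1.5-fold, against 5 and 2 of the 10 genes. The median log2 ratio was 0.71 over the 10 genes and 0.13 over all genes measured, and after that median was subtracted the shares of all genes became 12.3% higher and 16.5% lower while the counts of the 10 genes stayed at 5 and 2.

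**Figure D1:**
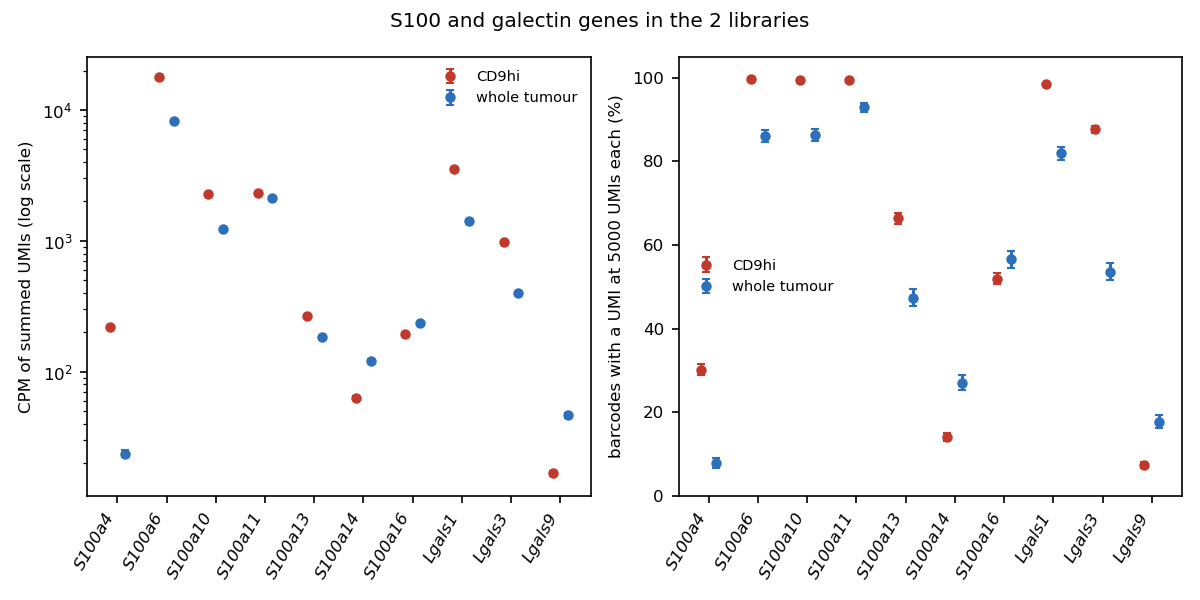
Levels and detection of the 10 genes in the CD9hi library (red) and the whole tumour (blue). The left panel gives CPM of summed UMIs on a log scale and the right panel the percentage of barcodes with at least 1 UMI after each barcode was thinned to 5000 UMIs, with 95% counting intervals. S100a4 is at 218 CPM in CD9hi, against 23.6 CPM in the whole tumour, and S100a14 and Lgals9 are lower in CD9hi.

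Among the S100 genes higher in CD9hi, S100a6, which encodes calcyclin, was at 17885 CPM in CD9hi, against 8213 CPM in the whole tumour, a log2 ratio of 1.12. S100a10 was at 2275 CPM in CD9hi, against 1235 CPM in the whole tumour, a log2 ratio of 0.88. S100a13, whose product takes part in the release of Fgf1 and Il1a that lack a signal peptide, was at 265 CPM in CD9hi, against 183 CPM in the whole tumour, a log2 ratio of 0.53 that fell short of 1.5-fold. These 3 genes thus shared the direction of S100a4 at much smaller ratios. S100a11, a partner of annexin A1, was nearly level, at 2305 CPM in CD9hi, against 2130.4 CPM in the whole tumour, a log2 ratio of 0.11 that became -0.01 after centring and -0.04 without barcodes of other cell types. S100a14 was at 63.3 CPM in CD9hi, against 121 CPM in the whole tumour, a log2 ratio of -0.94. That ratio was -0.46 without Prrx1-positive barcodes and -0.45 without those and Malat1-low barcodes (under 1000 CPM of Malat1), both short of 1.5-fold. Its chromosomal neighbour S100a16 was at 193 CPM in CD9hi, against 235 CPM in the whole tumour, a log2 ratio of -0.28, and that sign turned to 0.06 once barcodes with a Prrx1 UMI were left out.

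The galectins split. Lgals1 was at 3569.8 CPM in CD9hi, against 1429 CPM in the whole tumour, a log2 ratio of 1.32, and Lgals3 at 982 CPM in CD9hi, against 398 CPM in the whole tumour, a log2 ratio of 1.30. Lgals9 was at 16.7 CPM in CD9hi, against 46.4 CPM in the whole tumour, a log2 ratio of -1.47 (95% interval -1.56 to -1.39). S100a11-ps, a pseudogene of S100a11, had 19 UMIs in CD9hi and 4 in the whole tumour, Lgals1-ps1 and Lgals1-ps2 had 0 in both, and reads shared with these copies were not tested. Leaving out barcodes of other cell types moved the galectin ratios to 1.21 for Lgals1, 1.12 for Lgals3 and -1.49 for Lgals9, so each stayed on its side of 1.5-fold.

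Detection followed the levels. After each barcode was thinned to 5000 UMIs, which left out 114 shallower barcodes of CD9hi and 165 of the whole tumour, S100a4 had a UMI in 30.2% of CD9hi barcodes and 7.80% of whole-tumour barcodes. Without thinning the shares were 54.6% in CD9hi and 16.8% in the whole tumour. Acinar barcodes of the whole tumour, a cell type not known for S100a4 or S100a14, served as the background: thinned to the same depth, 0 of 291 had a UMI of S100a4, which allows a share of up to 1.03%, and 1.37% had one of S100a14. That background is of the whole tumour, since CD9hi held 4 acinar barcodes, too few to give one. Of the 36 CD9hi barcodes that met the macrophage rule, 31 were deep enough to thin, with S100a4 in 29.0% and S100a14 in 16.1% of them, at a median depth of 16938.5 UMIs before thinning. The thinned share of S100a14 in CD9hi was 1.15% in barcodes under 200 CPM of Epcam and 47.5% in those of 2000 CPM or more. S100a14 was found in 14.02% of thinned CD9hi barcodes and 27.0% of thinned whole-tumour barcodes (25.5% and 45.3% unthinned), and Lgals3 in 87.7% of CD9hi and 53.6% of whole-tumour barcodes (97.0% and 68.5% unthinned). Lgals9 was found in 7.31% of CD9hi and 17.7% of whole-tumour barcodes (21.7% and 41.9% unthinned), and in 18.9% of acinar barcodes, whose level was 52.1 CPM. Lgals1 was found in 98.6% of CD9hi barcodes, 82.0% of whole-tumour barcodes and 60.1% of acinar barcodes. Median depth was 17107 UMIs in the acinar barcodes, against 21791.5 in CD9hi and 17686 in the whole tumour.

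The genes also differed in how evenly barcodes carried them. In CD9hi, the 10% of barcodes with the most S100a4 UMIs held 73.2% of them, and the median barcode stood at 36.5 CPM. For S100a14 the corresponding barcodes held 84.4% and the median barcode was at 0 CPM. By contrast the leading 10% held 25.1% of S100a6 UMIs, 23.1% of S100a11 UMIs and 40.1% of Lgals1 UMIs. S100a6 and S100a11 were thus spread over nearly all CD9hi barcodes, whereas S100a4 and S100a14 had most of their UMIs in a minority. A UMI of both was held by 501 barcodes (9.84%) of CD9hi and 218 (8.55%) of the whole tumour. In CD9hi, 18.0% of barcodes with S100a4 also held S100a14, against 25.5% of all barcodes. The shares in the whole tumour were 50.9% and 45.3%, so S100a14 was not rarer there in barcodes with S100a4. The part of depth in these shares was not tested.

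Along the Vim level of the barcodes, S100a4 climbed and S100a14 declined in both libraries, each with 1 step against the trend in the whole tumour. From the lowest to the highest of 6 Vim bins (under 500, 500 to 1000, 1000 to 2000, 2000 to 4000, 4000 to 8000, and 8000 CPM or more), S100a4 stood at 23.2, 57.6, 109, 158, 248 and 404 CPM in CD9hi. In the whole tumour it stood at 8.201, 28.5, 19.7, 44.9, 75.6 and 213 CPM over the same bins. Every bin of CD9hi lay above the same bin of the whole tumour. S100a14 stood at 441, 234, 115, 43.1, 16.9 and 7.20 CPM in CD9hi, and at 149, 183, 76.7, 38.1, 24.6 and 9.93 CPM in the whole tumour. Its decline was unbroken in CD9hi, and in the whole tumour it followed a small peak in the bin of 500 to 1000 CPM, which was also there without barcodes of other types (180 CPM in the lowest bin and 195 CPM in the next).

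**Figure D2:**
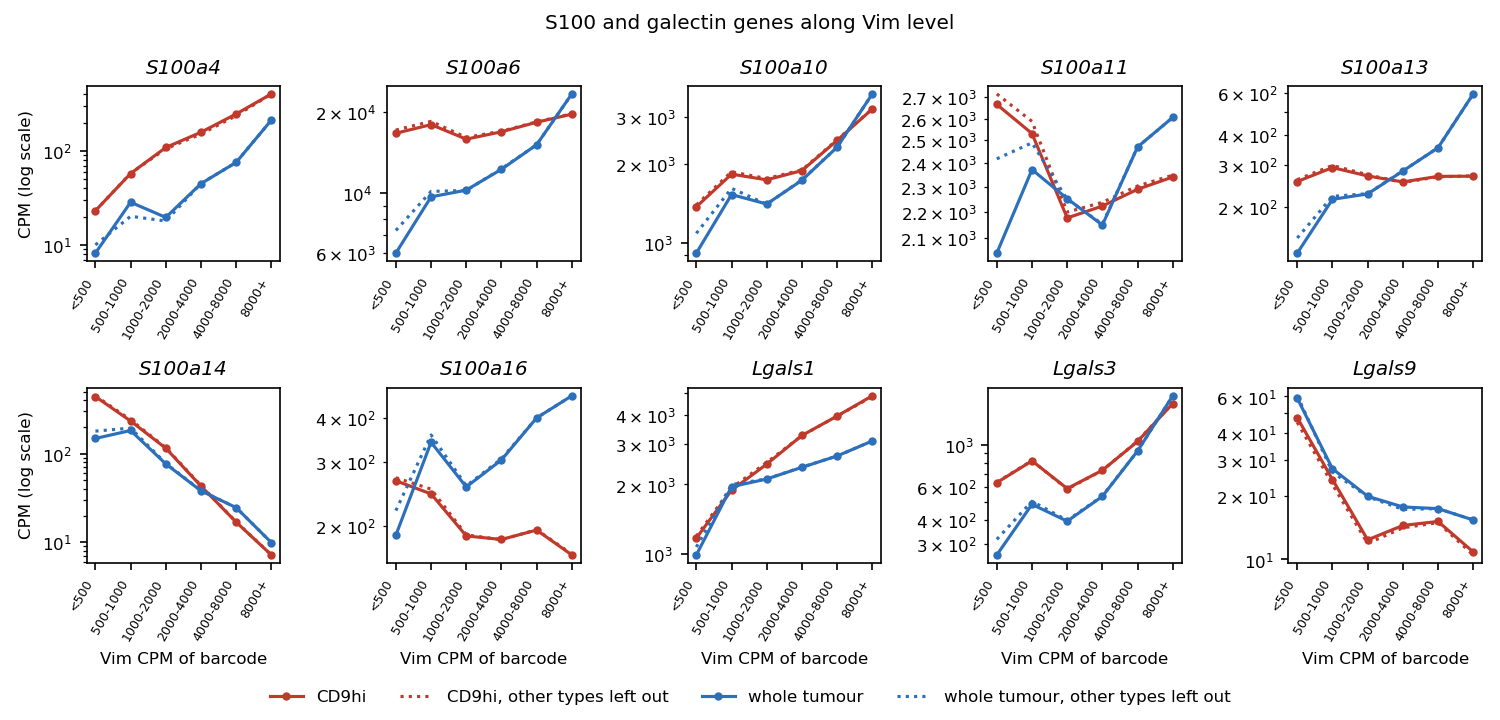
CPM of each of the 10 genes (log scale) in barcodes binned by Vim CPM, for CD9hi (red) and the whole tumour (blue), with dotted lines where barcodes of other cell types were left out. S100a4 and Lgals1 climb and S100a14 declines with Vim in both libraries, while S100a16 lies between 166 and 267 CPM in CD9hi and reaches 460 CPM in the top bin of the whole tumour.

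Set as a ratio of Vim-high barcodes (4000 CPM or more) to Vim-low barcodes (under 1000 CPM), 4 of the 10 genes were higher and 2 lower by 1.5-fold in CD9hi, where 8.04% of 9643 genes were higher and 16.1% lower. The classes held 2831 and 587 barcodes. In the whole tumour, with 249 Vim-high and 1887 Vim-low barcodes, 7 were higher and 2 lower, where 20.5% of 9689 genes were higher and 14.8% lower. The median log2 ratio over all genes was 0.14 in the whole tumour, and subtracting it left 14.9% of genes higher and 18.7% lower, with the same 7 and 2 among the 10 genes. S100a4, S100a10, Lgals1 and Lgals3 were higher and S100a14 and Lgals9 lower in Vim-high barcodes of both libraries, and S100a6, S100a13 and S100a16 passed 1.5-fold in the whole tumour alone. The differences between the libraries' ratios were not tested.

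S100a4 was at 284 CPM in Vim-high and 32.0 CPM in Vim-low barcodes of CD9hi, a log2 ratio of 3.15 (95% interval 3.00 to 3.30). In the whole tumour it was at 101 CPM in Vim-high and 9.50 CPM in Vim-low barcodes, a log2 ratio of 3.40 (95% interval 3.20 to 3.61). Lgals1 was at 4170.0 CPM in Vim-high and 1354 CPM in Vim-low barcodes of CD9hi, and at 2738 and 1050.5 CPM in those of the whole tumour, log2 ratios of 1.62 and 1.38. With all barcodes, the ratios of these mesenchymal-side genes were of like size in the libraries, although their levels were not. Without Prrx1-positive and Malat1-low barcodes the CD9hi ratios were 1.85 for S100a4 and 1.03 for Lgals1. In the whole tumour S100a4 was at 3.41 without Prrx1-positive and 3.28 without Malat1-low barcodes, and Lgals1 at 1.39 and 1.27. S100a14 was at 14.7 CPM in Vim-high and 388 CPM in Vim-low barcodes of CD9hi, a log2 ratio of -4.73, and at 21.9 and 151 CPM in those of the whole tumour, a log2 ratio of -2.77. Lgals9 had log2 ratios of -1.55 in CD9hi and -1.72 in the whole tumour, from 14.2 CPM in Vim-high and 41.5 CPM in Vim-low CD9hi barcodes.

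S100a16 took different courses in the libraries. It stood at 188 CPM in Vim-high and 261 CPM in Vim-low barcodes of CD9hi, a log2 ratio of -0.48, but at 410.2 CPM in Vim-high and 198 CPM in Vim-low barcodes of the whole tumour, a log2 ratio of 1.05. Over the 6 Vim bins it stood at 267, 245, 187, 183, 194 and 166 CPM in CD9hi, and at 188, 341, 256, 305, 399 and 460 CPM in the whole tumour. Without barcodes that held a Prrx1 UMI or had little Malat1, the CD9hi ratio was 0.00, and without barcodes of other types the whole-tumour ratio was 0.83. S100a13 was likewise flat in CD9hi, with a log2 ratio of 0.02, and steep in the whole tumour, at 397 CPM in Vim-high and 134 CPM in Vim-low barcodes, a log2 ratio of 1.56. S100a6 had a log2 ratio of 0.13 in CD9hi and 1.41 in the whole tumour, and Vim-low barcodes held 17030 CPM in CD9hi, against 6240.4 CPM in the whole tumour.

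Acinar barcodes weighed on the lowest whole-tumour bins. The 15 acinar markers summed to 73801 CPM in the bin under 500 CPM of Vim and to 1122 CPM in the bin of 8000 CPM or more, with 0 and 1 of the 15 at 0. Without barcodes of other types, S100a6 stood at 7285 CPM in the lowest Vim bin of the whole tumour in place of 6003 CPM, and its log2 ratio was 1.15 in place of 1.41. All 7 genes that were higher in Vim-high barcodes of the whole tumour were still past 1.5-fold after this removal, with the smallest ratio being that of S100a16.

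Along Epcam, the order was turned round for S100a4 and S100a14. In Epcam-high barcodes of CD9hi (1000 CPM or more, 1760 barcodes) against Epcam-low barcodes (under 500 CPM, 2560 barcodes), S100a14, S100a16 and Lgals9 were higher and S100a4 and Lgals1 lower by 1.5-fold. That is 3 higher and 2 lower of the 10 genes, where 16.5% of 9462 genes were higher and 10.4% lower (12.9% and 13.2% after the median of 0.10 was subtracted). S100a14 was at 184 CPM in Epcam-high and 3.71 CPM in Epcam-low barcodes of CD9hi, a log2 ratio of 5.63 (95% interval 5.44 to 5.82). Only 0.0845% of the measured genes had a larger ratio. S100a4 was at 37.1 CPM in Epcam-high and 371 CPM in Epcam-low barcodes, a log2 ratio of -3.32. Lgals1 was at 1908 CPM in Epcam-high and 4875 CPM in Epcam-low barcodes, a log2 ratio of -1.35. S100a16 was at 285 CPM in Epcam-high and 125 CPM in Epcam-low barcodes, a log2 ratio of 1.19, which dropped to 0.32 without Prrx1-positive and Malat1-low barcodes. In that setting Lgals1 was at -0.49 and Lgals9 at 0.33, also short of 1.5-fold, while S100a4 was at -2.07 and S100a14 at 4.83, where 6.25% of genes were higher and 6.48% lower. S100a4 and S100a14 thus passed 1.5-fold with and without those barcodes.

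**Figure D3:**
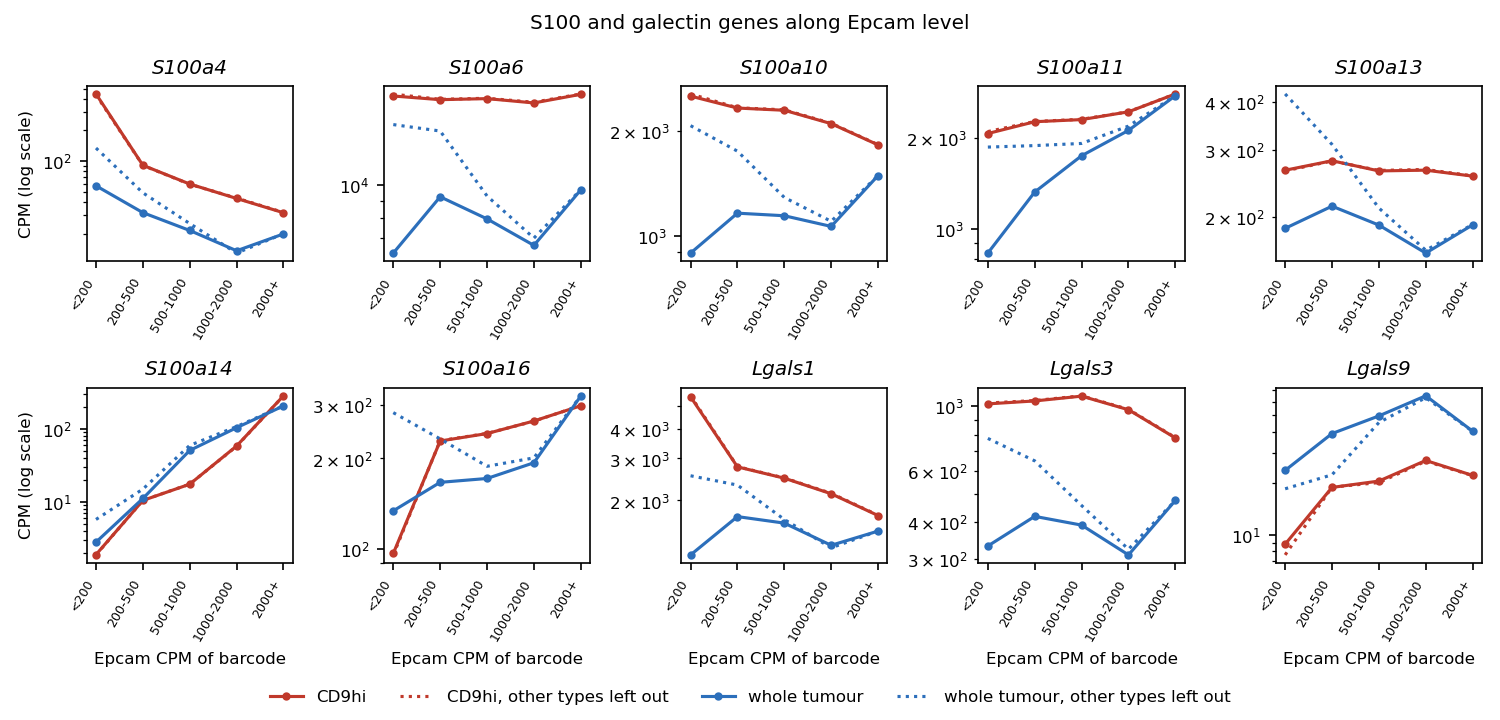
CPM of each of the 10 genes (log scale) in barcodes binned by Epcam CPM, for CD9hi (red) and the whole tumour (blue), with dotted lines where barcodes of other cell types were left out. S100a4 declines and S100a14 climbs with Epcam in CD9hi, and the dotted whole-tumour lines lie above the solid ones for S100a6 and S100a10 in the lowest bins.

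Over the 5 Epcam bins (under 200, 200 to 500, 500 to 1000, 1000 to 2000, and 2000 CPM or more), S100a14 stood at 1.90, 10.5, 17.5, 58.2 and 283 CPM in CD9hi. S100a4 stood at 446, 91.3, 60.2, 43.7 and 31.8 CPM over the same bins, so most of its drop lay between the lowest bin and the next. S100a6 stood between 17246 and 18264 CPM in all 5 bins of CD9hi, the least variable of the 10 genes along this axis together with S100a13, which stood between 256 and 281 CPM.

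In the whole tumour, the Epcam-low class held many barcodes of other types: 59.1% of barcodes under 200 CPM of Epcam and 32.6% of those from 200 to 500 CPM met a rule for another cell type. The acinar markers summed to 289451 CPM in the lowest Epcam bin and 1666 CPM in the highest. With all barcodes, 1741 Epcam-high against 497 Epcam-low, 4 of the 10 genes were higher and 1 lower, where 57.1% of 9500 genes were higher and 3.55% lower. After the median log2 ratio of 0.65 was subtracted, 9.98% of genes were higher and 10.1% lower. Without barcodes of other types, S100a14 and Lgals9 were higher (log2 ratios 4.02 and 1.26), and S100a4, S100a6, S100a13, Lgals1 and Lgals3 were lower (log2 ratios -2.43, -0.76, -1.03, -0.80 and -0.78), where 15.7% of all genes measured were higher and 9.29% lower. In that setting S100a14 stood at 5.75, 14.95, 59.3, 107 and 206 CPM over the 5 bins of the whole tumour. S100a14 was thus higher and S100a4 lower with Epcam in both libraries, with and without other types.

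Classes set by both genes separated S100a4 from its neighbours further. Without barcodes of other types, CD9hi held 594 barcodes high in both Epcam and Vim, 1640 that were Vim-high and Epcam-low, and 481 that were Epcam-high and Vim-low, against 89, 108 and 1367 in the whole tumour. S100a4 was at 50.5 CPM in CD9hi barcodes high in both, 408 CPM in Vim-high, Epcam-low ones and 22.9 CPM in Epcam-high, Vim-low ones. The corresponding levels in the whole tumour were 63.5, 150 and 11.4 CPM. At like class the libraries were thus closest for S100a4 in barcodes high in both genes. CD9hi was above the whole tumour in the Vim-high, Epcam-low class and in the Epcam-high, Vim-low class. S100a14 was at 51.1, 3.64 and 431 CPM over the same 3 classes of CD9hi and at 42.7, 6.80 and 191 CPM in the whole tumour. Barcodes high in both genes therefore held intermediate levels of S100a4 and S100a14 in each library. With barcodes of other types kept, removing the highest doublet scores left 543 CD9hi barcodes high in both genes. In these S100a4 was at 42.2 CPM and S100a14 at 49.8 CPM.

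The other genes did not all lie midway. S100a10 was at 2483 CPM in CD9hi barcodes high in both genes, near the 2709 CPM of Vim-high, Epcam-low barcodes and above the 1462 CPM of Epcam-high, Vim-low ones. Lgals3 was at 1219, 1154 and 674 CPM over the same classes, so that both Vim-high classes lay above the Epcam-high, Vim-low one. S100a11 was at 2603, 2213 and 2782 CPM over these classes, closest to the Epcam-high, Vim-low end. S100a16 was at 292, 137 and 286 CPM in CD9hi and at 549, 334 and 242 CPM in the whole tumour, so its highest class in the whole tumour was that with both genes high. Lgals1 was at 2389, 5159 and 1265 CPM in CD9hi and at 2815, 2692 and 1154 CPM in the whole tumour.

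**Figure D4:**
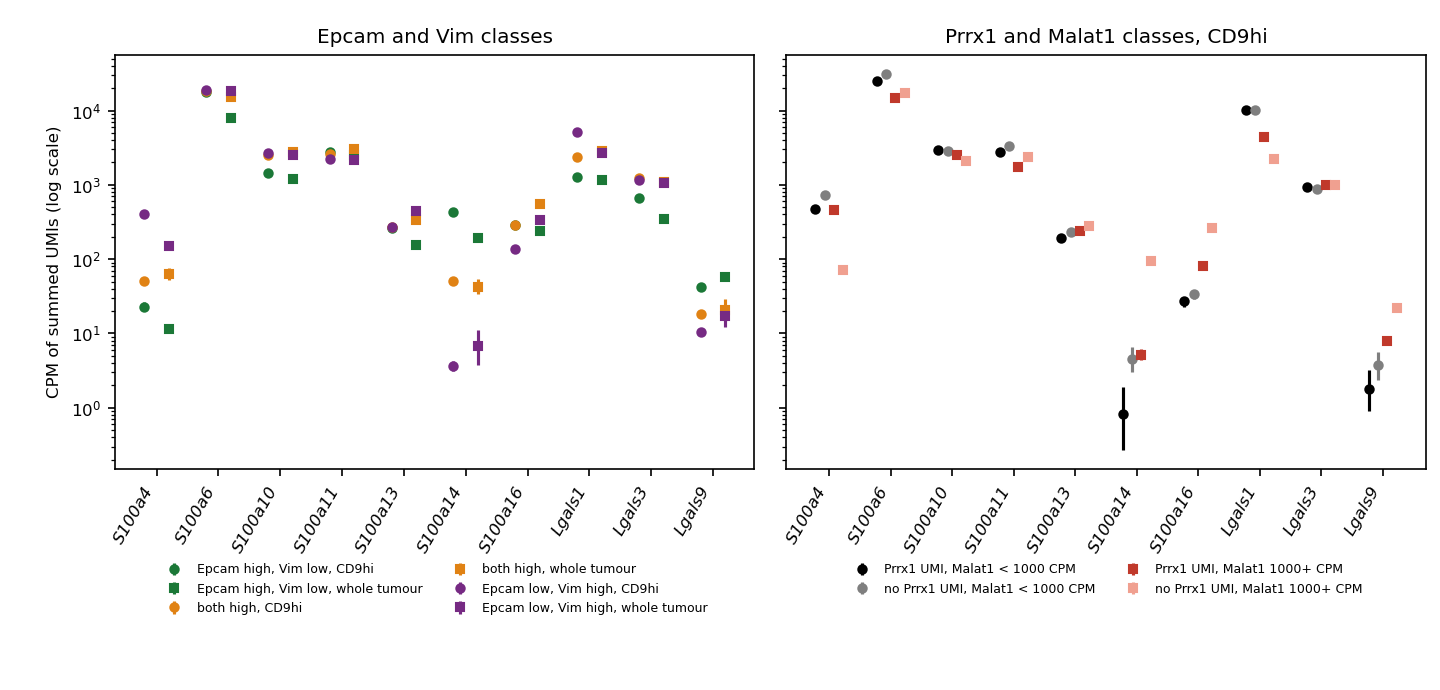
CPM of the 10 genes on a log scale with 95% counting intervals. The left panel shows barcodes by Epcam and Vim class, with circles for CD9hi and squares for the whole tumour, without barcodes of other types, and the right panel shows CD9hi barcodes by Prrx1 UMI and Malat1 level. In the left panel, S100a4 is highest, and S100a14 lowest, in the Vim-high, Epcam-low class (408 and 3.64 CPM in CD9hi).

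The libraries were next compared at like Vim level, as the mean of the log2 ratios within the 6 Vim bins. S100a4 was the 1 gene of the 10 that was higher in CD9hi by 1.5-fold and S100a16 the 1 that was lower, where 8.72% of 9653 genes were higher and 7.25% lower. The log2 ratio of S100a4 was 1.499, 1.01, 2.46, 1.81, 1.71 and 0.92 from the lowest to the highest bin, with a mean of 1.57. It was above 0 in all 6 bins. The mean was 1.11 without Prrx1-positive barcodes, 1.14 without Malat1-low barcodes and 0.44 without either, which is short of 1.5-fold. Without either, S100a14 was the 1 gene of the 10 higher in CD9hi by 1.5-fold, with a mean of 0.66. In that setting 8.15% of genes were higher and 6.36% lower. S100a16 had log2 ratios of 0.50, -0.48, -0.45, -0.74, -1.04 and -1.47, with a mean of -0.61, which became -0.28 without Prrx1-positive and Malat1-low barcodes. S100a10 had a mean of 0.19 and Lgals9 one of -0.37, compared with 0.88 and -1.47 over all barcodes. S100a6 and Lgals3 had means of 0.58 and 0.51, Lgals1 one of 0.35 and S100a13 one of -0.00, compared with 1.12, 1.30, 1.32 and 0.53 over all barcodes. The ratios of 3 of these declined over the bins, with 1.48 in the lowest and -0.25 in the highest bin for S100a6, 1.26 and -0.14 for Lgals3, and 0.99 and -1.14 for S100a13. S100a14 had log2 ratios of 1.57, 0.35, 0.58, 0.17, -0.55 and -0.53, with a mean of 0.27. The ratio was above 0 in the 4 lower bins and below 0 in the 2 upper ones. Its counting interval covered 0 in the bin of 2000 to 4000 CPM of Vim (-0.05 to 0.41). It also covered 0 in the highest bin (-1.44 to 0.70), where the whole tumour had 9 UMIs of S100a14. Counting error alone thus leaves the direction open in these bins.

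Prrx1 encodes a homeobox transcription factor of mesenchyme, and its UMIs were found in 1100 barcodes of CD9hi and 6 of the whole tumour, so the Prrx1 classes were compared in CD9hi. S100a4 was at 456 CPM in Prrx1-positive and 118 CPM in Prrx1-negative barcodes, a log2 ratio of 1.95 (95% interval 1.91 to 1.98). Lgals1 was at 5462 CPM in Prrx1-positive and 2777 CPM in Prrx1-negative barcodes, a log2 ratio of 0.98. S100a14 was at 4.45 CPM in Prrx1-positive and 87.9 CPM in Prrx1-negative barcodes, S100a16 at 70.8 and 245 CPM, and Lgals9 at 6.91 and 20.8 CPM, with log2 ratios of -4.30, -1.79 and -1.59. These are 2 higher and 3 lower of the 10 genes, where 14.4% of 9476 genes were higher and 15.3% lower. S100a6, S100a10, S100a11, S100a13 and Lgals3 lay within 1.5-fold, with log2 ratios from -0.37 to 0.26.

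The Prrx1 contrast held at like Vim. Among Vim-high barcodes of CD9hi the log2 ratios were 1.85 for S100a4, 0.90 for Lgals1, -1.82 for S100a16, -2.69 for S100a14 and -1.24 for Lgals9. With Malat1-low barcodes also set aside, S100a4 was at 529 CPM in 606 Prrx1-positive and 92.0 CPM in 1852 Prrx1-negative Vim-high barcodes, and S100a16 at 81.6 and 272 CPM. Prrx1-negative Vim-high barcodes thus held S100a16 near the 285 CPM of Epcam-high barcodes, and Prrx1-positive ones did not. These classes were not matched on Epcam, and Epcam-high barcodes include Vim-high ones. The 9 ductal or tumour epithelial markers summed to 3379 CPM in Prrx1-positive and 10029 CPM in Prrx1-negative barcodes of CD9hi. The part of Epcam in the S100a16 contrast was not tested. Prrx1-positive barcodes were also deeper, with a median of 32707 UMIs in those with 2 or more Prrx1 UMIs against 20884 in those with 0. For the class of 1 or more Prrx1 UMIs used in the ratios, the median was 30498 UMIs at 1000 CPM of Malat1 or more. Below that Malat1 level it was 26711.5 UMIs. Barcodes with 0 Prrx1 UMIs had medians of 21267 and 14011 UMIs at the same Malat1 levels. The 10 fibroblast and stellate markers summed to 593 CPM in Prrx1-positive and 58.9 CPM in Prrx1-negative barcodes, with 0 and 1 of the 10 at 0. The part of depth and of fibroblasts in these ratios was not tested beyond leaving out the 48 barcodes that met the fibroblast rule and those of other types, which left S100a4 at 1.92 and S100a16 at -1.86.

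Malat1 is a long noncoding RNA kept in the nucleus. Barcodes with under 1000 CPM of it numbered 613 (12.0%) in CD9hi, and their levels of S100a6 and Lgals1 were above those of every Vim, Epcam and Prrx1 class of CD9hi. S100a6 was at 27895 CPM in Malat1-low and 16744 CPM in the other barcodes, and Lgals1 at 10199 and 2814 CPM, with log2 ratios of 0.74 and 1.86. S100a4 was at 598 CPM in Malat1-low and 174 CPM in the other barcodes, a log2 ratio of 1.78 (95% interval 1.74 to 1.82). S100a14 was at 2.697 CPM in Malat1-low and 70.2 CPM in the other barcodes, S100a16 at 30.2 and 212 CPM, and Lgals9 at 2.78 and 18.3 CPM, with log2 ratios of -4.68, -2.81 and -2.70. That makes 3 higher and 3 lower of the 10 genes, where 9.36% of 8653 genes were higher and 63.9% lower. The median log2 ratio over all genes was -1.19 in this contrast, and relative to it 7 of the 10 genes were higher, with 36.6% of all genes higher and 37.7% lower.

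Malat1-low barcodes differed in RNA content in ways that move with these ratios. They had a median of 2366 detected genes and 17800 UMIs, against 4663 genes and 22127 UMIs in the other barcodes, and ribosomal protein genes took 28.5% of UMIs, against 14.4%. Epcam was at 45.8 CPM in Malat1-low and 1166 CPM in the other barcodes, while Vim was at 5308 and 4811 CPM, and 35.6% of Malat1-low barcodes against 19.7% of the others held a Prrx1 UMI. The part of these features in the levels of the 10 genes was not tested. Among barcodes with no Prrx1 UMI the contrast for S100a4 was wider, at 723 CPM in 395 Malat1-low barcodes and 70.6 CPM in the other 3597. With a Prrx1 UMI, S100a4 was at 472 CPM in 218 Malat1-low barcodes and 452 CPM in the other 882. High S100a4 in CD9hi was thus found with a Prrx1 UMI at any Malat1 level and with low Malat1 whether or not Prrx1 was seen.

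The S100a4 UMIs of CD9hi can be divided among these classes. Malat1-low barcodes, 12.0% of the library, held 28.1% of S100a4 UMIs and 29.2% of Lgals1 UMIs. Prrx1-positive barcodes with more Malat1, 17.3% of the library, held 50.7% of S100a4 UMIs and 30.6% of Lgals1 UMIs. The remaining 70.6% of barcodes held 21.2% of S100a4 UMIs, but 97.6% of S100a14 UMIs and 88.3% of S100a16 UMIs. With Prrx1-positive and Malat1-low barcodes left out of both libraries, the log2 ratio of CD9hi to the whole tumour was 1.48 for S100a4 in place of 3.21, 0.54 for Lgals1 in place of 1.32 and 1.22 for Lgals3 in place of 1.30. The excess of Lgals3 in CD9hi was therefore nearly as large without those barcodes, and that of Lgals1 fell short of 1.5-fold.

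In the whole tumour, 183 of 216 Malat1-low barcodes (84.7%) met the acinar rule. The 33 that met no rule for another type had 18176 CPM of S100a6, 1774 CPM of Lgals1 and 17.8 CPM of S100a4, so their Lgals1 and S100a4 were far below the Malat1-low barcodes of CD9hi.

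**Figure D5:**
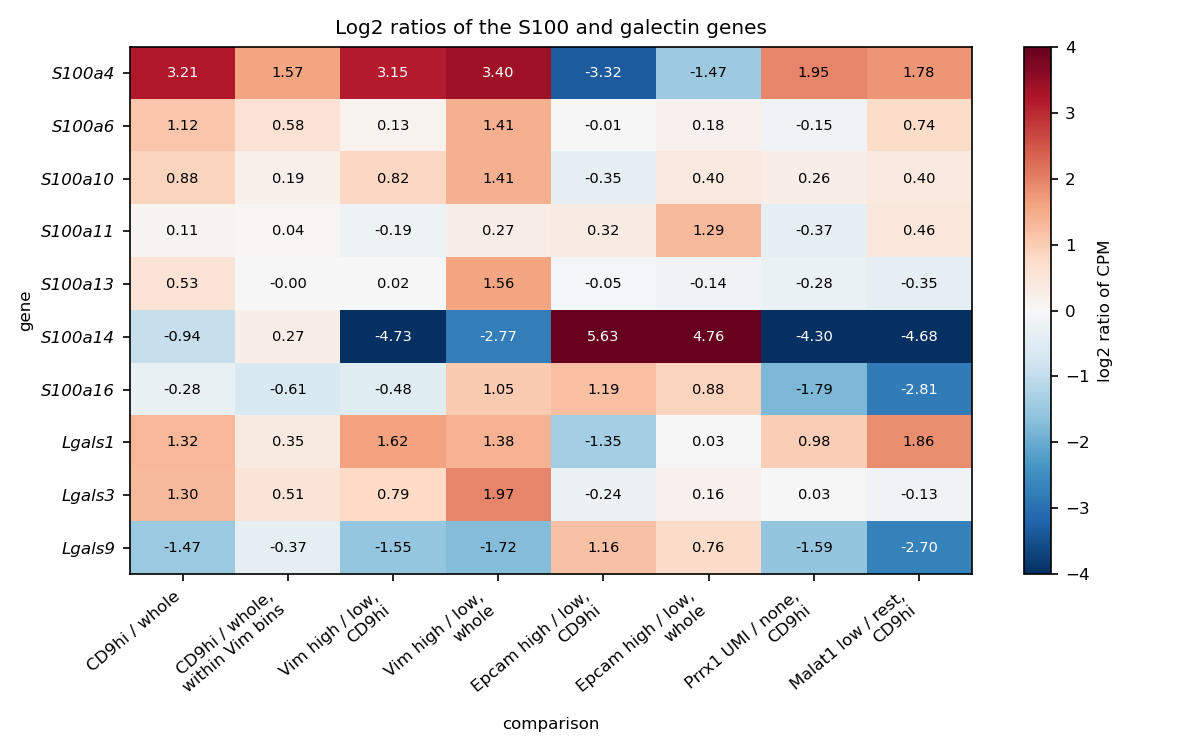
Log2 ratios of CPM for the 10 genes (down) in 8 comparisons (across), coloured on a scale from -4 to 4 with the value printed in each cell. S100a4 is positive in all comparisons but the Epcam ones, and S100a14 is negative in the Vim, Prrx1 and Malat1 columns and positive in the Epcam columns.

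The likeness of other genes was measured by Pearson's correlation of log2 levels over 42 grid points, each a combination of library, Vim bin and Epcam bin with 20 or more barcodes (23 in CD9hi and 19 in the whole tumour), among 2815 genes. Grid points share libraries, depth and the axes that define them, so the values are descriptions. Barcodes of other types were kept in the grid, acinar ones among them. The whole-tumour point under 500 CPM of Vim and under 200 CPM of Epcam held 198 barcodes. Its levels were 98.4 CPM of S100a6, 23.2 CPM of S100a16 and 0 CPM of S100a4. The part of such points in r was not tested. S100a4 was most like Uqcc2, Oaf and Ank (r = 0.92, 0.92 and 0.88). S100a14 was most like Pmm1, Krtcap3 and the tight junction gene Cldn7 (r from 0.93 to 0.94), and S100a16 most like the cadherin-family gene Fat1, Tcim and Nt5c (r = 0.95, 0.94 and 0.92). S100a10 was most like the annexin gene Anxa5 (r = 0.98), ahead of Serpinb6a and Cfl1. Lgals3 was most like Serpinb6a, Ahnak, which encodes a giant scaffold protein bound by S100a10, and Anxa5 (r from 0.95 to 0.96). Lgals9 was most like Gkn3, Agr2 and the mucin gene Muc1 (r from 0.80 to 0.82), genes of gastric and mucus-secreting epithelium. S100a6 was led by Arpc2, Pkm and Gnai2, S100a11 by Sri, Snx6 and Cdc42, S100a13 by Mfge8, Laptm4a and Itm2b, and Lgals1 by Rwdd1, Uqcc2 and Ppp1r14b. For S100a13 the likeness lay mainly in the whole-tumour points, where r was 0.97 for Mfge8, 0.98 for Laptm4a and 0.98 for Itm2b, while over the CD9hi points it was 0.72, 0.42 and -0.13. For S100a6 the CD9hi points gave r = 0.67 for Arpc2, 0.70 for Pkm and 0.56 for Gnai2.

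Among the 10 genes themselves, S100a4 and Lgals1 ran together over the grid (r = 0.84, with 0.89 in CD9hi and 0.81 in the whole tumour). S100a4 and S100a16 had r = -0.56 over the CD9hi points and 0.70 over the whole-tumour points, and S100a16 also diverged along Vim. The whole-tumour points include acinar barcodes, whose part in that r was not tested.

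The other family members and known partners were taken as whole lists. Of 18 further genes with S100 or Lgals symbols, 9 had a mean of 5 CPM or more, with a median log2 ratio of CD9hi to the whole tumour of -0.36, 1 higher and 4 lower by 1.5-fold, beside the 17.1% higher and 13.4% lower of all genes measured. Lgals7, the galectin of stratified epithelium, was the one higher, at 42.8 CPM in CD9hi, against 4.45 CPM in the whole tumour, a log2 ratio of 3.26. Within CD9hi it lay with the Vim-high, Prrx1-positive and Malat1-low barcodes (log2 ratios 1.57, 2.92 and 2.44) and was lower in Epcam-high ones (-3.70). In the whole tumour, on 206 UMIs, the Vim ratio was -0.30 and the Epcam ratio 1.37. Lower were Lgals4 at 9.42 CPM in CD9hi, against 195 CPM in the whole tumour, a galectin of the gut epithelium, and Lgals2, S100g and Lgals3bp, with log2 ratios of -4.37, -1.98, -1.86 and -0.87. S100a1, next to S100a13 on the chromosome, was at 243 CPM in CD9hi, against 192 CPM in the whole tumour, within 1.5-fold. S100b, Lgals8 and Lgalsl also lay within 1.5-fold. The neutrophil genes S100a8 and S100a9 were at 0.945 and 0.385 CPM in CD9hi and at 2.83 and 2.36 CPM in the whole tumour.

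Of 22 partner genes, 15 had a mean of 5 CPM or more, with a median log2 ratio of 0.57, 7 higher and 1 lower in CD9hi by 1.5-fold, where 17.1% of all genes measured were higher and 13.4% lower. The higher ones include partners of S100a10, namely Anxa2 at 3042 CPM in CD9hi, against 1873 CPM in the whole tumour (log2 ratio 0.70), Ahnak (1.51) and Plat (1.03), the tissue plasminogen activator gene. Also higher were Myh9 (0.66), the heavy chain of the myosin that S100a4 binds, Cacybp (0.67), named for its binding of calcyclin, Il1a (0.80) and Anxa5 (0.93). Lgals3bp, which encodes a secreted glycoprotein bound by Lgals3 and not a galectin, was the one lower (-0.87), and it is on both lists and counted in each. Anxa1, a partner of S100a11, was at 993 CPM in CD9hi, against 968 CPM in the whole tumour, a log2 ratio of 0.04. At like Vim level, as the mean of the log2 ratios within Vim bins, Ahnak (0.69) and Il1a (0.97) stayed past 1.5-fold. Anxa2 (0.19), Plat (0.41), Myh9 (0.29), Cacybp (0.44) and Anxa5 (0.28) fell short of it, and Lgals3bp turned to 0.42.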

How the data were processed

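The deposited values are UMI counts per gene and barcode, 1 sparse matrix a library, made by the authors with Cell Ranger 7.0.0 on GRCm39 per the submitters' processing notes, while the file headers name Cell Ranger 6.1.2. Libraries were 10x 3′ v3.1 per the labels' protocols, and the sources do not give whether introns were counted. The 10 genes and all lists were chosen with earlier results of these data known. Counts were summed over kept barcodes (500 genes, 1000 UMIs and 20% mitochondrial UMIs as limits) and divided by the summed UMIs. Log2 ratios add 0.5 counts to each sum, with 95% exact conditional binomial intervals, exact Poisson intervals for CPM and Clopper-Pearson intervals for shares, and a gene was counted as higher or lower past 1.5-fold. With 1 library a group, no test was run. Genes with a mean of 5 CPM or more formed the background. For detection, barcodes were thinned to 5000 UMIs, and a count of 0 was read as up to 3 counts. Vim, Epcam, Prrx1 and Malat1 classes used fixed edges, and Vim bins needed 20 barcodes of each library. Barcodes of other types were set aside in an alternative by marker rules: 10% of UMIs from acinar markers, or 2 UMIs of a list in 3 markers (4 for fibroblasts). Scrublet, run in scanpy 1.11.5, called 1 barcode of CD9hi (0.0196%) and 14 of the whole tumour by its automatic threshold, so that the automatic call did not work in CD9hi. Doublets were kept in the values reported, and removing the 207 and 52 highest scores was an alternative. Named besides the 10 genes are other family members with a mean of 5 CPM or more, a partner list, and the 3 genes most like each of the 10 by Pearson's correlation of log2(CPM + 10). S100a8, S100a9 and the 3 pseudogenes were named after their values were seen. The summing and ratio code was tested on simulated counts. Other settings were listed in advance, except leaving out Prrx1-positive and Malat1-low barcodes together, with or without other types, which was chosen after seeing the data. Python 3.11.15, numpy 2.4.6, scipy 1.17.1 and pandas 2.3.3 were used.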

Additional observations from a re-analysis of the deposited data

Results flagged for a closer look

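For 5 genes the same contrast had opposite signs in the libraries with both 95% counting intervals clear of 0. With 1 library each these differences were not tested, and several are small. S100a16 stood apart by size: its log2 ratio of Vim-high to Vim-low barcodes was -0.48 in CD9hi and 1.05 in the whole tumour. S100a11 had log2 ratios of -0.19 in CD9hi and 0.27 in the whole tumour for the same contrast. Its whole-tumour ratio was 0.04 without barcodes of other cell types and 0.13 after centring.

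For Epcam-high against Epcam-low barcodes, S100a10 had log2 ratios of -0.35 in CD9hi and 0.40 in the whole tumour. Lgals3 had log2 ratios of -0.24 in CD9hi and 0.16 in the whole tumour. S100a6 had log2 ratios of -0.012 in CD9hi and 0.18 in the whole tumour. Without barcodes of other cell types the whole-tumour ratios of these 3 genes were -0.51, -0.78 and -0.76, on the same side of 0 as in CD9hi. The CD9hi ratio of S100a6 was so small that its sign depended on the setting: it was 0.18 without Malat1-low barcodes. Lgals1 also had opposite signs for Epcam, at -1.35 in CD9hi and 0.03 in the whole tumour, where the interval of -0.00 to 0.06 reached 0.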

How the results depend on the processing

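Over all alternatives, 173 of 200 counts of the 10 genes past 1.5-fold stayed within 1.5 times the reported count, and of 556 values of ratios reported past 1.5-fold, 533 stayed past it, 22 kept their sign short of it and 1 reversed. The one that reversed was Lgals9, Epcam-high against Epcam-low in the whole tumour, at -0.13 between the top and bottom groups of equal size in place of 0.76. For CD9hi against the whole tumour, the lower count of 2 became 1 without Prrx1-positive barcodes, 1 among genes of 50 CPM or more, 1 without Prrx1-positive and Malat1-low barcodes and 1 when other types were left out as well. Within Vim bins, the higher count of 1 became 3 without Prrx1-positive barcodes, 2 with equal weight per barcode and 3 in joint Vim and Epcam bins. The lower count of 1 there became 0 in those same 3 settings, 0 without the 5% deepest barcodes, 0 without Malat1-low barcodes, and 0 in both settings that left out Prrx1-positive and Malat1-low barcodes. Among genes of 50 CPM or more, the lower counts became 1 in the Vim contrast of either library, 1 in the Prrx1 contrast and 1 in the Malat1 contrast. For Epcam in the whole tumour, the higher count of 4 became 2 without other types and 2 after centring, and the lower count of 1 became 5, 3 after centring, 2 without Malat1-low barcodes and 0 among genes of 50 CPM or more. For Epcam in CD9hi, the higher count of 3 and the lower count of 2 each became 1 without Prrx1-positive and Malat1-low barcodes. Centring raised the higher count in the Malat1 contrast to 7. Causes were not tested, except that genes under 50 CPM drop out by construction.

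No paired analysis was possible because each group has 1 library, and for the same reason leaving out a replicate was not an option. Depth limits Lgals9 and S100a14 in the small classes, where a few UMIs set the level. It also limits S100a4 in the whole-tumour Vim bins of 500 to 1000 and 1000 to 2000 CPM, which rest on 62 and 51 UMIs.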
